A study of Homo sapiens with 22 samples.

Results

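The regions described here are the peaks of STAG2 that overlapped no peak of STAG1 and no peak of RAD21 in solvent-treated cells. They were selected on the deposited peak lists: a STAG2 peak of clone D7 was kept when it overlapped, by 1 bp or more, no STAG1 peak of clone D7 and no RAD21 peak of DMSO-treated cells of clone D7 or clone A2. Of 22518 STAG2 peaks, 1767 met this rule. Among the rest, 5076 lacked STAG1 but lay in a RAD21 peak, 15636 were shared with STAG1 and lay in a RAD21 peak, and 39 were shared with STAG1 outside RAD21. The absence of STAG1 and of RAD21 in DMSO chose the regions and is therefore a description, as is their STAG2 enrichment.

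Cohesin is a ring of SMC1A, SMC3 and RAD21 to which either STAG1 or STAG2 binds. It extrudes chromatin loops, which CTCF bound to its DNA motif can halt, so cohesin ChIP-seq peaks in most cells lie largely at CTCF sites. NIPBL loads cohesin and drives extrusion, PDS5A and WAPL regulate how long it stays on DNA, and cohesin with STAG2 is known to be found at more CTCF-free sites than cohesin with STAG1. RAD21 is a core subunit, so a STAG2 peak outside every RAD21 peak is a place where the STAG2 list and the RAD21 lists part.

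The data were 12 peak lists, 1 library each, from chromatin immunoprecipitation sequencing of hTERT RPE-1, a telomerase-immortalised line of human retinal pigment epithelium. CTCF and WAPL came from wild-type cells without spike-in. The other lists came from 2 clones whose NIPBL carries a degron that the small molecule dTAGV-1 targets for destruction: clone NIPBL-A2 (genotype mCherry-P2A-FKBP12(F36V)-NIPBL; HA and RAD21) and clone NIPBL-D7 (genotype mGreenLantern-P2A-FKBP12(F36V)-NIPBL; STAG1, STAG2, RAD21 and PDS5A). RAD21 was profiled in both clones with DMSO for 24 h and with dTAGV-1 for 4 h or 24 h, and PDS5A with DMSO for 24 h. These libraries held about 10% NIH/3T3 chromatin as a spike-in, while STAG1, STAG2 and HA had none and no labelled treatment. The peak names of the STAG1 and STAG2 lists, though, carry the word DMSO. Each genotype is 1 clone, cells were cycling, and no group was replicated, so no p-value was computed and all intervals cover counting error only.

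The 2 DMSO RAD21 lists, of 39713 peaks in clone A2 and 37566 in clone D7, did not remove the same STAG2 peaks. The clone A2 list alone removed 1700 STAG2-only peaks and the clone D7 list alone removed 526. Of the 1700, dTAGV-1 RAD21 covered 75.6% (clone A2, 4 h), 10.6% (clone A2, 24 h), 11.3% (clone D7, 4 h) and 67.9% (clone D7, 24 h). Of the 526, the shares were 7.98%, 27.9%, 34.6% and 24.5% in the same order. In the 1700 the dTAGV-1 libraries therefore paired across clone and time, clone A2 after 4 h beside clone D7 after 24 h. In the 526 those libraries did not pair. The place of the DMSO libraries was fixed by the choice of regions, and which property of the libraries goes with the pairing was not tested. The depth of a list, read from its lowest local background pileup, was 1.87 in clone A2 DMSO and 3.00 in clone D7 DMSO, against 3.14 for STAG2 and 1.77 for STAG1.

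Most of the 1767 regions were weak. Their deposited fold enrichment, the ratio of the summit to the local background, ran from 2.33 to 23.9 with a median of 4.35, against a median of 7.97 in STAG2-only peaks within RAD21 and 13.0 in peaks shared with STAG1 within RAD21. The pileup at the summit, the number of overlapping fragments recovered from the fold and the deposited p, had a median of 19, against 35 and 86. Other peaks outside RAD21 were weak too. The median fold was 4.35 in the 39 STAG2 peaks shared with STAG1 there. It was 3.68, as a STAG1 fold, in the 1006 STAG1 peaks without STAG2 and RAD21. The lowest pileup called was 12 in STAG2, 9 in STAG1 and clone A2 DMSO and 11 in clone D7 DMSO. At the edge of the rule, the member closest to a barred peak, at chr2:42810383-42810703, lay 8 bp from it at a fold of 5.63. The peak excluded by the shortest overlap, 2 bp, was chr6:27688093-27688483, at a fold of 7.91. The median distance to the nearest RAD21 peak of DMSO was 18776 bp, and 47 members lay within 500 bp of a barred peak.

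The strongest members were at genes of RNA polymerase III. This enzyme transcribes tRNA genes and other short untranslated RNAs. tRNA and vault RNA genes carry their promoter inside the transcribed region, as an A box and a B box that the factor TFIIIC binds. TFIIIC sites are known neighbours of cohesin, condensin and CTCF in several species. The category was chosen after the peaks were ranked by fold, and what follows describes it.

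The sequences below show what lay under these summits, with matches to the A box (TNGNNNAGNGG) and the B box (GGTTCNANNCC) in capitals, on the strand that holds the match, since the gene table gives no strand. They come from the promoter windows of RefSeq, GRCh38.p14, which cover only genes that happen to lie beside another gene's start, so several are cut at the window's edge. The first 5 genes held a member and the last 2 had no STAG2 peak.
TRG-CCC2-2, glycine tRNA, whole, chr16:636736-636806, minus strand: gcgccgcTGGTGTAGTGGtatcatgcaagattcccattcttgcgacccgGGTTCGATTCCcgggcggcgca
TRG-CCC2-1, glycine tRNA, 3′ part, chr2:70248991-70249043, minus strand: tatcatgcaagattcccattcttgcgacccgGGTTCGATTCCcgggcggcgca
TRL-CAA1-1, leucine tRNA, 5′ part, chr6:28896280-28896328, minus strand: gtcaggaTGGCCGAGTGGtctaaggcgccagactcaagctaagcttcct
TRI-AAT1-1, isoleucine tRNA, 3′ part, chr6:57800236-57800284, plus strand: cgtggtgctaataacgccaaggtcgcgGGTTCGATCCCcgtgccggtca
VTRNA1-1, vault RNA, 5′ part, chr5:140711276-140711325, plus strand: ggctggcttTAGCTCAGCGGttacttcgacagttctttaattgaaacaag
TRP-TGG3-2, proline tRNA, whole, chr14:20684016-20684087, plus strand: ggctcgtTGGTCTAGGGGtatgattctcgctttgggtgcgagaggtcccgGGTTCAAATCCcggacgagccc
TRL-AAG2-2, leucine tRNA, whole, chr6:28943622-28943703, minus strand: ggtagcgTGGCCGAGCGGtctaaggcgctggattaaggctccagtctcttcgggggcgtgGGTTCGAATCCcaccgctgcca

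The boxes were present with and without a STAG2 peak. Of 14 tRNA genes wholly inside a window, 3 had a STAG2 peak, with the A box in 2 and the B box in 3. Among these only the peak at TRG-CCC2-2 was a member. The other 11 genes had no STAG2 peak, with the A box in 6 and the B box in 9. Searched on both strands, the A box was in 18.1% of all 35116 windows of 300 bases, the B box in 0.843%, and both on 1 strand in 0.120%; neither motif overlaps the other in letters. The STAG2 fold was 6.49 at TRG-CCC2-2, 14.2 at TRG-CCC2-1, 14.9 at TRL-CAA1-1, 7.06 at TRI-AAT1-1 and 8.65 at VTRNA1-1. The pileups there were 126, 107, 100, 53 and 94 fragments. The 53 bases shown of TRG-CCC2-1 matched TRG-CCC2-2 at all 53 positions. tRNA genes have near-identical copies, and how reads were shared among such copies is not given in the sources used here, so the split of signal among copies is uncertain.

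Of the 1767 members, 99 had their summit within 200 bp of a tRNA gene (5.60%, 95% Wilson interval 4.62 to 6.77), against 0.675% of all STAG2 peaks. The share was 0.414% in STAG2-only peaks within RAD21, 0.185% in peaks shared with STAG1 within RAD21, and 0.0994% in the 1006 STAG1 peaks without STAG2 and RAD21. The 39 STAG2 peaks shared with STAG1 outside RAD21 had a like share, 3 of 39 (7.69%, 2.65 to 20.3), which its interval does not separate from that of the members. The difference from STAG2-only peaks within RAD21 was 5.19 percentage points (95% Newcombe interval 4.19 to 6.37). These members were strong for the set: their fold ran from 5.02 to 23.9 with a median of 11.7, and their median summit pileup was 82. Of the 71 members with a fold of at least 10, 62 were at a tRNA gene (87.3%, interval 77.6 to 93.2), while of the 11837 other STAG2 peaks at that fold 34 were (0.287%) and 11815 overlapped CTCF.

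**Figure D1:**
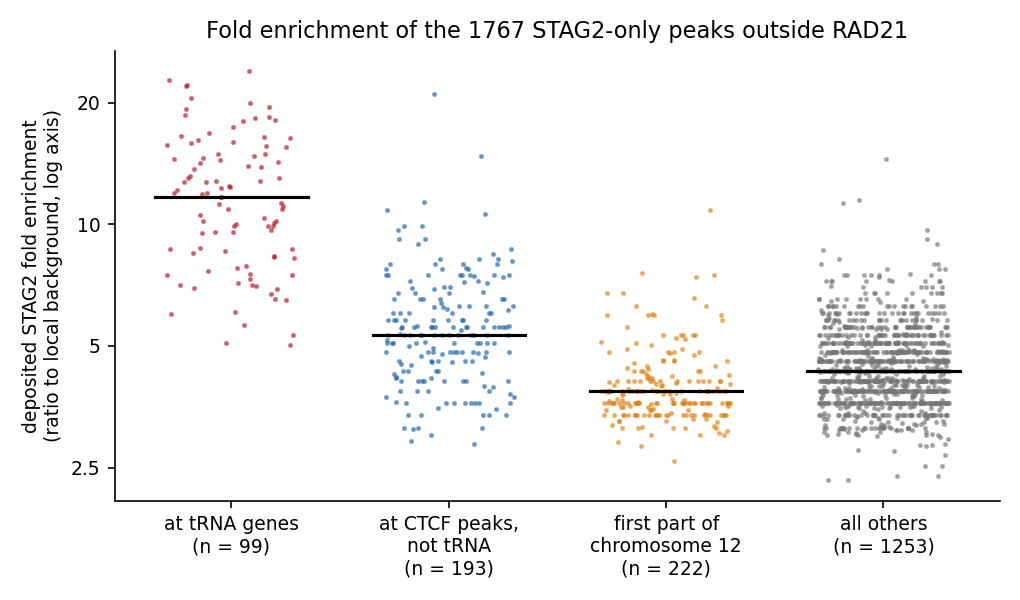
Deposited STAG2 fold enrichment of each of the 1767 members (vertical, log axis), split into 99 at tRNA genes, 193 at CTCF peaks and not at tRNA genes, 222 others on chromosome 12 below 36 Mb ("first part of chromosome 12"), and the 1253 remaining; each point is a peak and the bar is the median. The medians are 11.7, 5.31, 3.86 and 4.35, and 62 of the 71 points at or above 10 are in the tRNA column.

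The summits sat on the tRNA genes themselves. The distance between summit and centre of the gene had a median of 20 bp, an upper quartile of 28.5 bp and a maximum of 65 bp, where the median tRNA gene is 73 bp long. Widening the window added few: 101 members lay within 1000 bp of a tRNA centre and 103 within 2000 bp, against 99 within 100 bp.

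**Figure D2:**
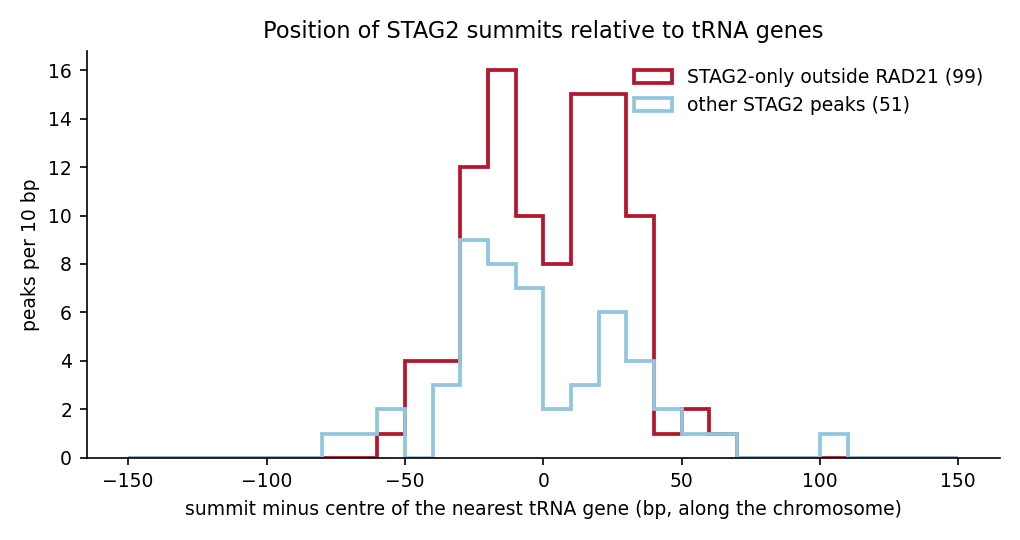
Number of STAG2 summits per 10 bp (vertical) against their distance from the centre of the nearest tRNA gene in bp (horizontal), for members (red) and other STAG2 peaks (blue). All 99 members at tRNA genes lie within 65 bp of the centre, on both sides of it.

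Of 443 nuclear tRNA genes in the table, 99 (22.3%) had a member summit within 200 bp and 153 (34.5%, interval 30.3 to 39.1) had any STAG2 summit. In the other 11 lists the number was far lower: 36 genes for CTCF, 17 for STAG1, 15 for PDS5A, 1 for WAPL and 0 for HA. RAD21 of clone D7 reached 25 in solvent, 21 with dTAGV-1 for 4 h and 13 for 24 h, and RAD21 of clone A2 reached 20, 8 and 13 in that order. At 113 tRNA genes the only summit was that of STAG2. STAG1 and STAG2 were precipitated from the same clone, with different antibodies and at different depth, and the part of either in this gap was not tested.

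**Figure D3:**
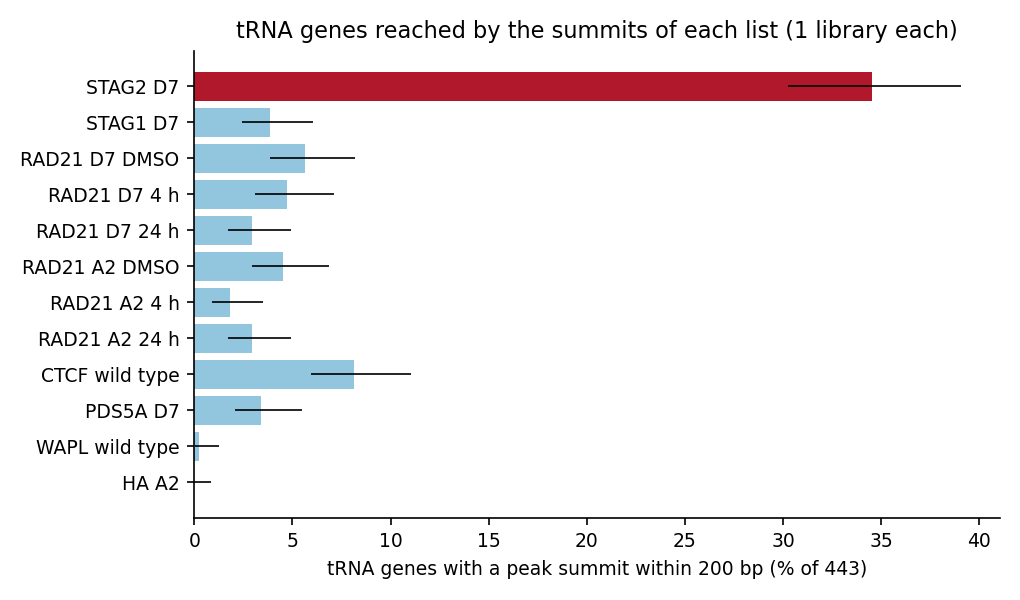
Percent of the 443 tRNA genes with a peak summit within 200 bp, for each of the 12 lists; bars are shares of 1 library each and lines are 95% Wilson intervals. STAG2 reached 34.5% and the next list, CTCF, 8.13%.

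By isotype, the largest numbers were serine with 11 of 26 genes, glycine with 11 of 30, lysine with 10 of 27 and arginine with 9 of 26. The genes named TRX-CAT, the initiator methionine tRNA that starts protein synthesis, had a member at 6 of 8. Asparagine had none at 22 genes, although 4 of those carried a STAG2 peak that did not meet the rule. Chromosome 6 held 51 of the 99, at 51 of its 155 tRNA genes. Chromosome 1 had 13 of 98 genes with a member, and smaller sets went both ways. Larger shares were 8 of 19 on chromosome 14, 6 of 13 on 11 and 5 of 9 on 15. Smaller shares were 4 of 33 on chromosome 17, 3 of 26 on 16 and 1 of 22 on 7. Between 26 and 29 Mb of chromosome 6, where a large tRNA cluster lies among histone genes, 144 tRNA genes and 85 STAG2 peaks were found. There 51 peaks were members, of which 49 were at a tRNA gene, 36 had a fold of at least 10 and 4 overlapped CTCF.

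The 6 members of highest fold were named by a fixed rule, and 5 were tRNA genes. The highest, chr6:125780015-125780692, had a fold of 23.9, lay on the glutamate tRNA gene TRE-CTC1-7 844 bp from NCOA7, a nuclear receptor coactivator gene, and overlapped a CTCF peak. The next, at chr6:27902351-27903280, had a fold of 22.7 at the glycine gene TRG-GCC2-3. The lysine gene TRK-CTT1-1 lay under chr14:58239647-58240300 at a fold of 22.1. The serine gene TRS-GCT6-1 lay under chr6:26305283-26305944 at a fold of 22.0. The threonine gene TRT-AGT2-1 lay under chr6:26532709-26533236 at a fold of 20.5. The glycine, lysine, serine and threonine peaks are also the 4 members of highest fold in no other list. The exception among the 6, chr21:21232264-21232840 at a fold of 21.0, lay inside NCAM2, a neural adhesion gene, with no tRNA gene nearby, and overlapped CTCF and RAD21 of clone D7 at 24 h.

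Neighbouring members at most 10 kb apart formed 93 chains holding 207 members, and 1560 members stood alone. The longest chain, chr6:26286320-26313476, held 5 members, 4 at tRNA genes, with folds from 4.11 to 22.0. The chain at chr1:146035535-146039603 held 4, all at tRNA genes, with folds from 8.33 to 16.4. The chain at chr1:161523693-161532366 held 4, of which 3 were at tRNA genes, with folds from 7.73 to 15.0 near FCGR2A, an Fc receptor gene, and HSPA6, a heat shock protein gene.

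Some other short genes of RNA polymerase III were among the members. Of 4 vault RNA genes, VTRNA1-1 (fold 8.65, pileup 94) and VTRNA1-3 (fold 11.5, pileup 102) each held a member that lay in no other list. Of 4 Y RNA genes, which bind the Ro protein, RNY1 held a member (fold 7.52, pileup 54), while the peak at RNY5 was shared with STAG1 and lay in RAD21. RMRP, the RNA of the RNase MRP enzyme, RNU6-2, a copy of the U6 spliceosomal RNA gene and the only one of 154 small nuclear RNA genes with a member, and the tRNA pseudogene TRS-ACT1-1 held 1 member each. Of the 154 small nuclear RNA genes, 6 had any STAG2 peak. None of 4 genes of the scRNA class held a member, and 2 of them had a STAG2 peak. The gene of the RNase P RNA and 49 annotated ribosomal RNA genes had no STAG2 peak at all, so their lack of members is not particular to the rule. Of 1196 small nucleolar RNA genes, 6 had a STAG2 peak and none held a member. Among 1911 microRNA genes, which are mostly made by another polymerase, 11 had a STAG2 peak and 1 held a member, MIR155.

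Few members overlapped CTCF. The number was 207 (11.7%, interval 10.3 to 13.3), against 85.4% of all STAG2 peaks, 78.0% of STAG2-only peaks within RAD21 and 96.3% of peaks shared with STAG1 within RAD21. The difference from STAG2-only peaks within RAD21 was -66.3 percentage points (interval -68.1 to -64.3). It was smaller, -26.8 points, when peaks of like STAG2 fold were compared in 10 bins and weighted by members. In the bin of lowest fold the share was 6.40% of 453 members against 17.7% of 232 others, and in the bin of highest fold 13.3% of 15 members against 99.9% of 670 others. STAG1 peaks without STAG2 and RAD21 overlapped CTCF in 42.0%. The rule barred RAD21 peaks, and most STAG2 peaks within RAD21 overlapped CTCF, so the CTCF share of members is not independent of the rule.

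**Figure D4:**
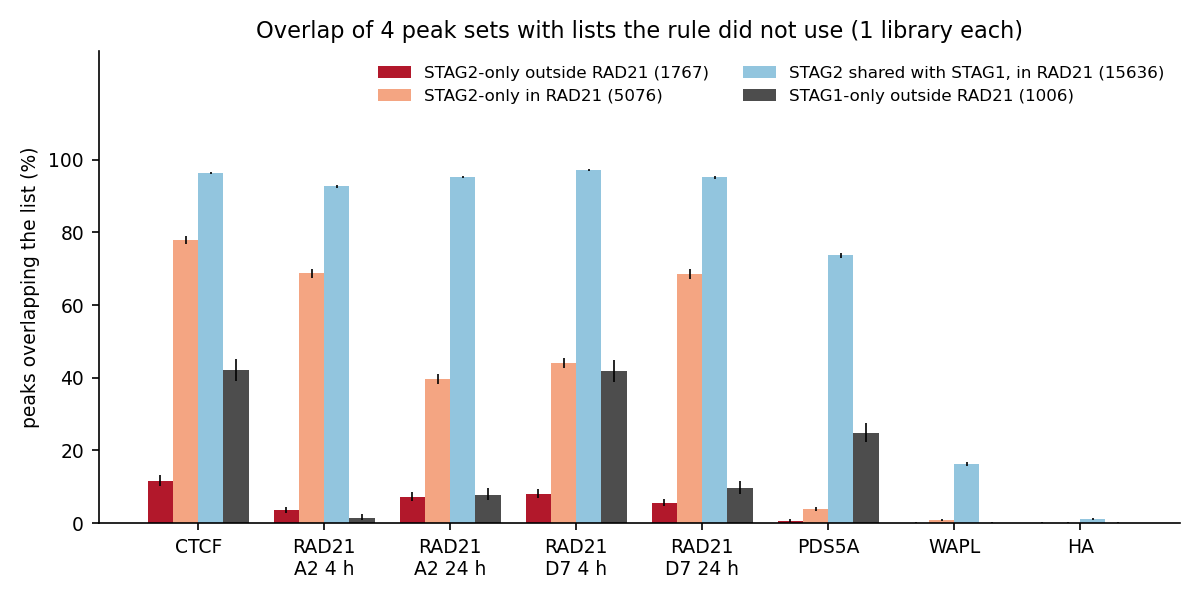
Percent of peaks overlapping each list that the rule did not use (vertical), for 4 sets of peaks; A2 and D7 are the clones, 4 h and 24 h the time in dTAGV-1, bars are shares and lines 95% Wilson intervals. The members (dark red) stay at or below 11.7% in all 8 lists, under STAG2-only peaks within RAD21 in 7 of them beyond the intervals; in HA both shares are below 0.2%.

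The CTCF peaks that members overlapped were among the weaker of that list. Their median rank was the 34.9th percentile by CTCF fold, with a median CTCF fold of 8.19. STAG2-only peaks within RAD21 overlapped CTCF peaks at a median percentile of 65.1, and peaks shared with STAG1 within RAD21 at 83.0. The low rank was not particular to members. STAG1-only peaks outside RAD21 overlapped CTCF peaks at a median percentile of 32.6, with a median CTCF fold of 7.53. Of the 207, 110 lay in no further list. Of 21 members whose summit fell in a RefSeq promoter window, 0 windows held the CTCF core (CCNNNAGNNGGC, both strands), against 217 of 546 windows under other STAG2 summits (39.7%) and 10.6% of all windows. Of those 21 members, 3 overlapped CTCF, against 500 of the 546 other peaks. With a limit of 3 counts, 0 of 21 does not separate the members from all windows. The 4 CTCF-overlapping members of highest fold were TRE-CTC1-7 and the NCAM2 peak, given above, chr6:28542864-28543375 on the arginine gene TRR-TCG5-1 (fold 15.5, also in RAD21 of clone D7 at 4 h), and chr19:28710238-28710706 (fold 14.7, also in RAD21 of clone A2, 4 h, and clone D7, 24 h), where the nearest coding gene, UQCRFS1, is 494845 bp away.

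RAD21 in dTAGV-1, when NIPBL is targeted for loss, was not used by the rule. These lists, though, share antibody and clones with the DMSO RAD21 lists that the rule barred, so a low overlap is not independent of the rule. RAD21 in dTAGV-1 overlapped 62 members in clone A2 at 4 h (3.51%, interval 2.75 to 4.47), against 80.2% of all STAG2 peaks. At 24 h in clone A2 it overlapped 127 (7.19%, 6.07 to 8.49), against 75.7%. In clone D7 the number was 143 at 4 h (8.09%, 6.91 to 9.46), against 78.1%, and 99 at 24 h (5.60%, 4.62 to 6.77), against 82%. At least 1 of these 4 lists covered 303 members (17.1%, 15.5 to 19.0), against 89.5% of all STAG2 peaks. So 1464 members lay in no RAD21 list at all; 205 lay in 1, 73 in 2, 20 in 3 and 5 in 4. From 4 h to 24 h the number was higher in clone A2 and lower in clone D7, but with the clone D7 DMSO list alone barred both directions turned, from 38.9% to 8.88% in clone A2 and from 9.66% to 36.1% in clone D7. The clone, the depth of the library and the time cannot be told apart with 1 library each.

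CTCF split these overlaps. Among the 207 members at CTCF, RAD21 was found at 42 (clone A2, 4 h), 40 (clone D7, 24 h), 33 (clone A2, 24 h) and 29 (clone D7, 4 h). The first 2 lists shared 22 members, which is 52.4% of one and 55.0% of the other, and the last 2 shared 11 (33.3% and 37.9%). Among the 1560 members outside CTCF, the order was different: 114 (clone D7, 4 h), 94 (clone A2, 24 h), 59 (clone D7, 24 h) and 20 (clone A2, 4 h). There the first 2 shared 37 members (32.5% and 39.4%), and the last 2 shared 3 (5.08% and 15.0%). At CTCF no other pair shared as many as 22. The lists of clone A2 had 10 members in common there, those of clone D7 also 10, and the 4 h lists of both clones 8. Outside CTCF 37 was the most of any pair and 3 the fewest. The clone A2 lists there had 10 in common, which is 50.0% of the earlier and 10.6% of the later list. The 24 h lists of both clones shared 19 (20.2% and 32.2%). Clone A2 at 4 h and clone D7 at 24 h paired among the peaks that the clone A2 DMSO list alone removed. These 2 lists shared the most members of any pair at CTCF and the fewest outside, where clone A2 at 4 h held only 20. The other pair across clone and time, clone A2 at 24 h and clone D7 at 4 h, shared the most members outside CTCF. These extremes were not particular to members. Among all 19239 STAG2 peaks at CTCF, clone A2 at 4 h and clone D7 at 24 h also shared the most of any pair, 17247. There every pair shared from 87.7% to 97.2% of either list. Among all 3279 STAG2 peaks outside CTCF, the same pair shared the fewest, 107. Clone A2 at 24 h and clone D7 at 4 h shared the most there, 479. The 2 members of highest fold in at least 2 of the lists were the chromosome 19 peak above and chr15:97755083-97755519 (fold 11.4), both in CTCF and in the RAD21 lists of clone A2 (4 h) and clone D7 (24 h).

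The regulators of cohesin residence were found at few members. PDS5A overlapped 11 members (0.623%, 0.348 to 1.11), against 52.1% of all STAG2 peaks, 3.92% of STAG2-only peaks within RAD21 and 24.9% of STAG1-only peaks outside RAD21. WAPL overlapped 0 of 1767, which allows a share of up to 0.170%, against 11.4% of all STAG2 peaks. The WAPL list was small, at 2667 peaks, and it overlapped 0.808% of STAG2-only peaks within RAD21. HA, a list of 230 peaks, overlapped 1 member, against 0.822% of all STAG2 peaks. In all, 1346 members (76.2%) lay in no other list of the series. A STAG2 peak in no other list meets the rule by definition, so these are all such peaks of the 22518.

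The other concentration of members was on chromosome 12. Below 36 Mb, a boundary drawn after the counts were seen, 235 of 634 STAG2 peaks were members (37.1%, interval 33.4 to 40.9), against 6.40% of 860 on the rest of the chromosome and 7.0% of 21884 everywhere else. These 235 are 13.3% of all members, where 2.82% of all STAG2 peaks and 2.30% of STAG2-only peaks within RAD21 lay there. In steps of 4 Mb the share was 6.67% from 0 to 4 Mb, 63.7% (65 of 102) from 16 to 20 Mb and 39.1% from 32 to 36 Mb. They were weak, with a median fold of 3.86 and a median pileup of 15, and 0 of the 235 were at a tRNA gene.

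**Figure D5:**
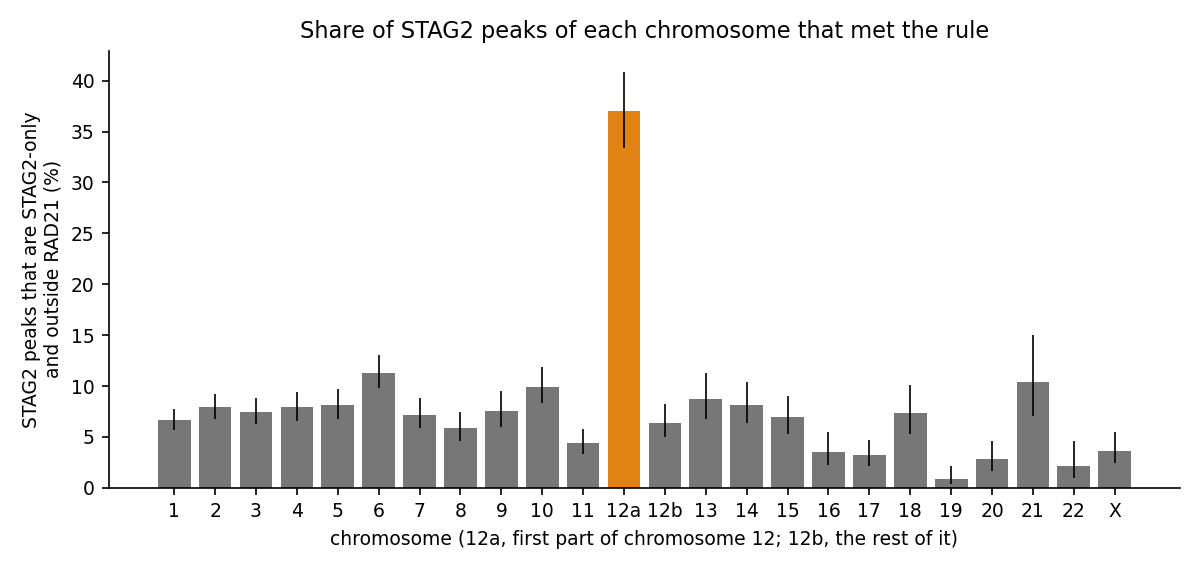
Percent of the STAG2 peaks of each chromosome that met the rule (vertical) with 95% Wilson intervals; chromosome 12 is split at 36 Mb into 12a and 12b. The first part of chromosome 12 stands at 37.1% and all other bars are at or below 11.3%.

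The local background of the libraries also differed in this stretch. The median local background pileup of peaks there, against the rest of chromosome 12, was 26.9 against 14.5 in CTCF, 7.0 against 4.33 in STAG1, 4.60 against 2.34 in RAD21 of clone A2 with DMSO and 8.92 against 4.95 in RAD21 of clone D7 with DMSO. It was 9.17 against 5.24 in PDS5A and 7.11 against 3.54 in WAPL. In STAG2 it was 5.76 against 3.99 over the peaks that are not members, and 3.14 in both places over the members, which is the lowest value the list holds. Equal medians at this floor hide a difference above it. The share of members with a local background above the lowest value was 43.8% in the stretch. It was 25.5% on the rest of chromosome 12 and 30.3% over all members outside the stretch. The part of this background, or of the number of copies of the stretch, in the result was not tested. The share of a list that lay there was 2.82% in STAG2, 3.48% in HA (8 of 230 peaks) and from 1.46% (CTCF) to 2.14% (WAPL) in the other 10 lists. Among the peaks that lay in no other list, the share there was 15.2% in STAG2. All such STAG2 peaks are members, so this value is not separate from the count of members there. The share was 8.91% (4.76 to 16.1) in RAD21 of clone A2 at 4 h, 5.54% (4.01 to 7.60) at 24 h and 2 of 14 in WAPL. It ran from 0.730% to 3.08% in CTCF, STAG1, PDS5A and the other 4 RAD21 lists.

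The protein-coding genes with most members were mainly in that stretch. SOX5, a transcription factor of the SOX family, held 15 members among 22 STAG2 peaks over 1033 kb. PIK3C2G, a lipid kinase, held 13 of 18, and EPS8, an actin regulator, 8 of 10. CCDC91, a trafficking factor, held 7 of 8, PLEKHA5 6 of 11, and MGST1, a glutathione transferase, 5 of 7. RASSF8, also on chromosome 12, held 4 of 7. The remaining 3 of the 10 were elsewhere, at 4 of 7 each: ABCA13, a transporter, EPB41L2, a membrane skeleton protein, and GRIN2A, a glutamate receptor subunit. The highest member fold in the 10 genes was 7.0, in RASSF8. Among other chromosomes the share of STAG2 peaks that were members was 11.3% on chromosome 6, 10.4% on 21 and 9.95% on 10, and lowest on 19 at 0.855%.

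Compared with all STAG2 peaks, members lay inside coding genes as often and at gene starts less often. Their summits lay inside a protein-coding gene in 793 cases (44.9%), against 44.9% of all STAG2 peaks and 49.0% of STAG2-only peaks within RAD21 (difference -4.14 points, -6.82 to -1.43). They lay within 1 kb of the start of a coding gene in 34 of 1703 cases (2.00%, 1.43 to 2.78, with chromosome 8 not used here). The share was 4.18% in all STAG2 peaks, 1.10% in STAG2-only peaks within RAD21 and 41.1% in STAG1-only peaks outside RAD21. Members thus stood 0.893 points above STAG2-only peaks within RAD21 (0.236 to 1.72), and 13 of the 34 were at a tRNA gene. The 3 starts of highest fold all had a tRNA gene under the summit: TRE-CTC1-7 above, the initiator gene TRX-CAT1-2 998 bp from the histone gene H4C8 (chr6:26286320-26286764, fold 16.4), and the initiator gene TRX-CAT1-1 279 bp from ILF2, an RNA-binding protein gene (chr1:153671002-153671534, fold 14.4).

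The gene lists held few STAG2 peaks, so each share below rests on a small count. Within 10 kb of 28 targets and effectors of YAP, TEAD and AP-1, which drive growth of adherent cells, 6 of 58 STAG2 peaks (10.3%) were members, against 888 of 13543 (6.56%) for all coding genes. They lay at the Hippo pathway effectors YAP1 (2 of 4 peaks) and WWTR1 (2 of 9), at CRIM1 (1 of 5) and at DOCK5 (1 of 1), with folds of at most 4.83. Of 33 STAG2 peaks at 25 mesenchymal and matrix genes, 3 were members (9.09%), at the transcription factor PRRX1 (fold 3.86), the collagen COL4A2 (5.10) and the cadherin CDH2 (3.86). None of 12 at 15 genes of pigment epithelium identity, none of 16 at 18 genes of cohesin, its regulators and CTCF, and none of 2 at 10 housekeeping genes was a member.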

How the data were processed

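ChIP-seq of hTERT RPE-1 was taken from 12 deposited narrowPeak lists, 1 library each; the 10 input samples, with no peak list, were left out. The submitters' processing notes name BWA, Picard, SAMtools, bedtools, deepTools and MACS2 and the builds hg38 and mm10, with no versions; filters and the handling of reads with several matches are not given in the sources used here. Columns were read by the narrowPeak layout, as the files have no header: the authors deposited a whole-number score, a fold enrichment as a ratio, and the −log10 of p and q. Peak names carry a q of 0.001 for CTCF and 0.01 for the rest, and each list comes from 1 library.

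Overlap meant 1 bp or more. Summit pileup and local background were solved from fold and p (Poisson, 1 added to both terms, −log10 p under 250); all solved pileups were whole within 0.01 in 11 lists, and 1.30% in HA, which was left out. Read totals were not used. Shares carry 95% Wilson intervals, differences 95% Newcombe intervals, and the limit of a count of 0 is 3 counts. Genes came from a RefSeq table of GRCh38.p14 (19970 coding and 443 tRNA genes; 22131 starts of 15811 coding genes), matching the notes' hg38. Peaks and genes named follow a fixed rule: the highest folds in each class, the longest chains, the edges of the rule and the 10 genes with most members. The members and lists were chosen with earlier results of these data known, and the tRNA, RNA polymerase III and chromosome 12 categories after the peaks were seen. The planned motif and GC search in 300 bases around every summit was not run, as no genome was used; motifs were searched only in the RefSeq promoter windows. Python 3.11.15, numpy 2.4.6, pandas 2.3.3 and scipy 1.17.1 were used, and the functions were tested on simulated data.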

Additional observations from a re-analysis of the deposited data

Results flagged for a closer look

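The share of members with a RAD21 peak moved in opposite directions from 4 h to 24 h of dTAGV-1 in the clones. Over all members the difference of 24 h minus 4 h was 3.68 percentage points for clone A2 and -2.49 points for clone D7. Over members at CTCF peaks the signs were the other way round, at -4.35 points in clone A2 and 5.31 points in clone D7. Over members outside CTCF they were 4.74 points in clone A2 and -3.53 points in clone D7. With the clone D7 DMSO RAD21 list alone barred, the signs over all regions kept were also the other way round: clone A2 had 38.9% at 4 h but 8.88% at 24 h, while clone D7 had 9.66% and then 36.1%. Opposite directions were not particular to members. RAD21 covered 80.2% and then 75.7% of all 22518 STAG2 peaks for clone A2, but 78.1% and then 82% for clone D7. The whole lists changed size in the same directions as the share over all members. They held 25763 and then 28589 peaks (clone A2), against 39059 and then 30114 (clone D7). Each value rests on 1 library per clone and time, and no test compared the clones, so the difference between clones was not tested.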

How the results depend on the processing

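Of 104 alternative values, 44 moved beyond the interval or count range of the reported one. The CTCF share of members stayed below that of STAG2-only peaks within RAD21 under all 9 settings run for that difference. Requiring a STAG2 −log10 q of at least 5 left 1084 members and at least 10 left 359. At 5 the shares were 15.9% for CTCF, 22.4% for any dTAGV-1 RAD21 list, 9.13% for tRNA genes and 7.56% for chromosome 12 below 36 Mb. At 10 they were 27.9%, 25.9%, 27.6% and 7.52%, with 2.51% for PDS5A, 37.3% inside coding genes, 5.13% at gene starts and a CTCF difference of -61.8 points. Barring clone D7 RAD21 alone gave 3467 regions, with 47.6% at CTCF, 49.6% in a dTAGV-1 RAD21 list, 2.94% at tRNA genes, 48.5% inside coding genes, 1.31% at gene starts, 8.16% on chromosome 12 below 36 Mb and a CTCF difference of -26.9 points; RAD21 was then at 38.9% and 8.88% of regions in clone A2 (4 h, 24 h) and 9.66% and 36.1% in clone D7, which turns the direction in time. Judging by summits within 200 bp gave 10.1% at CTCF, 3.48% at gene starts and 11.6% on chromosome 12 below 36 Mb. Members outside the dTAGV-1 lists too were at CTCF in 7.92%. With the upper CTCF peaks by fold alone, 3.68% of members were at CTCF and the difference was -60.3 points. Within 10 bins of STAG2 fold it was -26.8 points. A gene start window of 2.5 kb gave 2.94%. Leaving out chromosome 12 below 36 Mb, or a tRNA window of 1 kb (both chosen after seeing the data), moved no value beyond its interval. No paired analysis was possible because each group held 1 library. Depth limits the rule: a region missing from the STAG1 or RAD21 lists was not called at their depth, which does not show that the protein was absent there.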
